A study of Mus musculus with 12 samples.

Results

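The difference between wild-type and Faf2 knockout NE-4C cells in their response to retinoic acid (RA) was examined gene by gene as the interaction (KO RA − KO NO) − (WT RA − WT NO), so that a positive value means a larger rise, or a smaller fall, in KO cells. Of 12 libraries, 11 entered the comparison and KO RA replicate 3 was left out, and 17327 of the 57010 genes in the table had enough counts to be tested. The interaction passed an adjusted p of 0.05 in 232 genes (edgeR quasi-likelihood test, Benjamini-Hochberg adjustment). It was higher in KO in 139 genes (0.802% of those tested) and lower in KO in 93 (0.537%). With all 12 libraries the same test called 0 genes, so each count below rests on leaving out 1 library.

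NE-4C is a neuroectodermal line from embryonic day 9 brain of mice that lack p53, and the KO is 1 colony picked after CRISPR deletion of exon 4 of Faf2, so genotype and clone cannot be told apart. The groups of 3 libraries were WT NO and KO NO (not induced, collected on day 0) and WT RA and KO RA (1 µM RA for 24 h, then basal medium until day 3). RA and time in culture therefore cannot be told apart either. Libraries came from 3 passages per group, and p-values measure the spread between passages. In bulk RNA, fewer cells of a type and less RNA per cell cannot be told apart.

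RA enters the nucleus and switches on genes through its receptors, which pair with retinoid X receptors at response elements. In neural progenitors it turns on Hox genes and its own breakdown enzyme Cyp26a1, and it favours exit from the cell cycle and neuron formation. FAF2 is a membrane adaptor for the VCP segregase that helps extract misfolded proteins from the endoplasmic reticulum.

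Library totals ran from 17370069 to 30738717 counts. KO RA replicate 3 stood apart, with a TMM scaling factor of 0.394 against 0.872 to 1.28 in the others. Ribosomal protein genes held 24.2% of its counts and mitochondrially encoded genes 23.5%, against 14.6% to 22.8% and 9.10% to 17.7% elsewhere. When genes were split by exonic length into 5 classes of equal size, its shortest class lay 0.66 above the mean over the 12 libraries on the log2 scale (median), and its longest class lay 0.59 below. All levels below are TMM-scaled CPM, a library's counts scaled to a common total. KO RA is the mean of replicates 1 and 2, and the value in replicate 3 follows it, scaled with all 12 libraries. On that scale the other libraries read lower by 1.082 to 1.095 times, and replicate 3 was ranked among them on it.

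Faf2 itself (chr13:54769596-54813238, GRCm39) was measured at 54.1, 42.0 and 39.3 CPM in WT NO and at 23.0, 23.6 and 27.8 CPM in KO NO. After RA it was at 38.3, 41.2 and 53.3 CPM in WT and at 38.2 ± 1.28 CPM (SD, n = 2) in KO, with 18.7 CPM in KO RA replicate 3. KO NO was lower than WT NO (log2 fold change −0.86, adjusted p = 0.0111, edgeR), whereas KO RA and WT RA differed by −0.21 (adjusted p = 0.489, edgeR). A gene-level value sums reads from exons outside the deletion, so it does not check the knockout.

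Markers of neural progenitors were present in every group. Summed over 7 markers they held 307 to 362 CPM in WT NO, 340 to 370 in WT RA, 291 to 336 in KO NO and 423 to 425 in KO RA, with 181 CPM in KO RA replicate 3. The pluripotency factor Pou5f1 was also abundant, at 1256 to 2464 CPM in WT NO, 2306 to 3028 in WT RA, 1475 to 1753 in KO NO and 1071 to 1267 in KO RA, with 800 in replicate 3. Among the 4 pluripotency markers the levels differed widely. In the 11 libraries Nanog was at 47.17 to 99.55 CPM and Dppa4 at 1.77 to 55.5, and Zfp42 had 3 counts or fewer in each. Of 5 astroglial markers, S100b and Aqp4 had 3 counts or fewer in every one of the 11 libraries. In these libraries Gfap was at 0.208 CPM or less and Aldh1l1 at 2.40 or less, whereas Slc1a3 was at 8.13 to 17.9 CPM.

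WT cells changed 1868 genes with RA (10.8% of those tested) and KO cells 2776 (16%). In WT 979 rose (5.65%) and 889 fell (5.13%), and in KO 1469 rose (8.48%) and 1307 fell (7.54%). With all 12 libraries in the edgeR fit, 53 rose and 14 fell in WT, and 642 rose and 262 fell in KO, of 16502 tested. The WT libraries were the same in both fits, which estimate 1 spread over all groups, so the counts and the classes below depend on that choice. These counts do not show that the responses differ, which the interaction tests directly. Called genes were sorted by their own responses. A response was gained when only KO passed the threshold (131 genes), lost when only WT did (52), amplified when both moved one way and KO moved further (24), damped when KO moved less (2) and reversed when they moved in opposite directions (23). Among the 131 gained responses, 88 rose in KO and 43 fell.

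**Figure D1:**
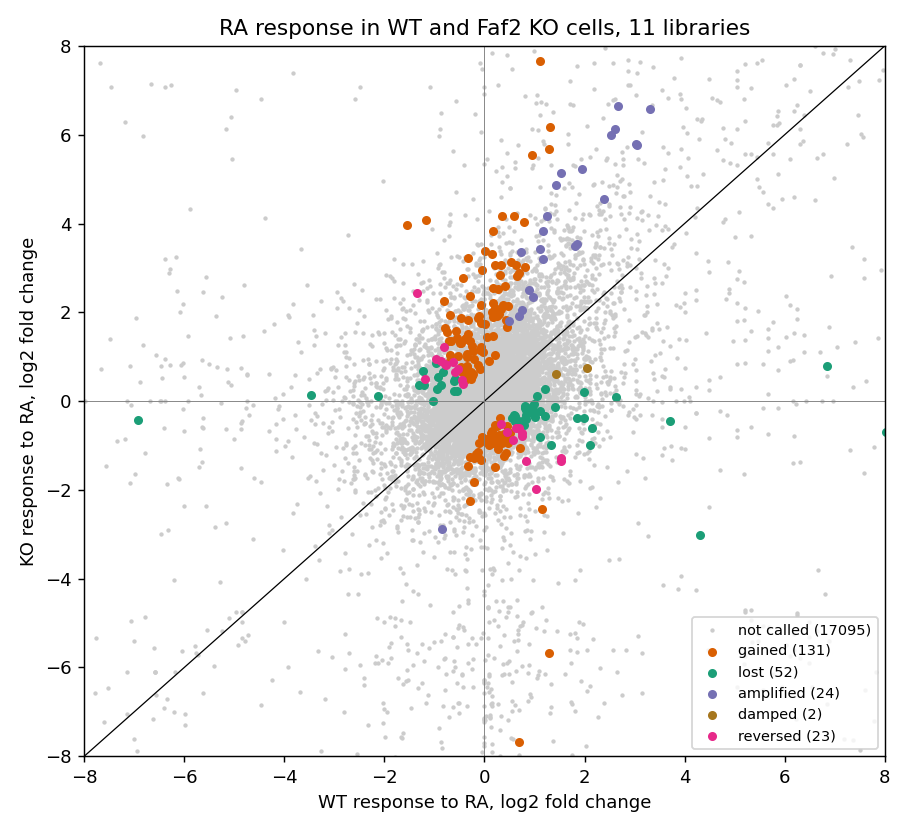
Log2 fold change with RA in WT cells (x axis) and KO cells (y axis) for each tested gene in 11 libraries, coloured by class, with the line of equal response. The 131 gained genes passed the test in KO alone, the 23 reversed genes lie in the upper left and lower right, and 4 called genes fall outside the axis limit of 8.

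The classes described where the groups started as well as where they ended. In the 88 genes whose rise was gained, the median log2 difference of KO from WT was −0.83 before RA and 0.86 after it. Of all 139 genes called higher, 136 were below WT in untreated KO cells (97.8%), against 68.2% of all tested genes with a positive interaction. Of the 93 called lower, 78 were above WT in untreated KO cells (83.9%, against 65.7%). The untreated level is a term of the interaction, so these shares are a description and were not tested.

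Among genes whose rise with RA was gained in KO, Lrrn2, Cbln1 and Pfn2 had the smallest adjusted p by the naming rule. Lrrn2, a leucine-rich repeat neuronal membrane protein (chr1:132807600-132870402), was at 4.38, 4.88 and 5.44 CPM in WT NO and 4.20, 5.02 and 4.88 in WT RA. In KO it went from 3.21, 3.23 and 3.54 CPM to 15.3 and 14.8, with 3.17 in KO RA replicate 3. Replicates 1 and 2 were above every other library, and replicate 3 was within the range of untreated KO cells when all were on the 12-library scale (2.93, 2.96 and 3.24 CPM). The interaction was 2.23 ± 0.24 (log2 ± SE, adjusted p = 0.0102, edgeR). Cbln1, a secreted synapse organiser, was at 1.37 ± 0.11 CPM in WT NO (SD, n = 3) and 2.65 ± 0.82 in WT RA (n = 3). It went from 0.325 ± 0.14 in KO NO (n = 3) to 13.3 and 17.7 CPM in KO RA, with 3.27 in replicate 3. Pfn2, a neuronal profilin that binds actin, was at 19.8 to 23.2 CPM in WT NO and 15.1 to 16.7 in WT RA. In KO it rose from 10.2, 14.0 and 14.6 to 30.6 and 33.7 CPM, and replicate 3 was higher still at 48.4.

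Of 29 tested neural progenitor markers, 5 were called higher in KO and 0 lower, against 0.802% and 0.537% of all tested genes. The median interaction of the 29 was 0.92 against −0.004 over all tested genes. Cdh2, the N-cadherin of neuroepithelial junctions, was at 42.1, 41.7 and 49.2 CPM in WT NO and 41.3, 51.2 and 45.4 in WT RA. In KO it went from 26.1, 26.8 and 31.2 to 86.7 and 66.2 CPM, with 45.8 in replicate 3, within the WT range. The interaction of Cdh2 was 1.40 ± 0.21 (log2 ± SE, adjusted p = 0.0192, edgeR). Msi1, an RNA-binding protein of neural stem cells, rose in KO from 11.6, 17.7 and 19.3 to 61.1 and 58.4 CPM, and KO RA replicate 3 was below all of these at 8.62. WT held 29.2 to 37.2 CPM without RA and 26.0 to 39.3 with it. Nes, the intermediate filament nestin, rose in KO from 34.1 to 40.6 CPM to 69.5 and 61.1, and replicate 3 was at 75.0. Sox1 and Irx3, transcription factors of the neural plate, rose in both genotypes and further in KO, by 6.13 against 2.61 and by 4.55 against 2.38 on the log2 scale. Sox1 was at 2.41 to 4.62 CPM in WT RA and at 19.4 and 15.1 in KO RA, with 3.07 in replicate 3. Irx3 was at 2.31 to 3.69 CPM in WT RA and at 11.9 and 12.4 in KO RA, with 0.991 in replicate 3.

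Sox2 and Pax6, factors that maintain progenitors, were not called. Sox2 rose in WT (1.05, adjusted p = 0.0169, edgeR) and its interaction was −0.45 (adjusted p = 0.505, edgeR). Pax6 was at 4.51 to 10.1 CPM in WT NO and at 0.866 to 2.20 in KO NO, and its interaction was 0.32 (adjusted p = 0.837, edgeR).

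**Figure D2:**
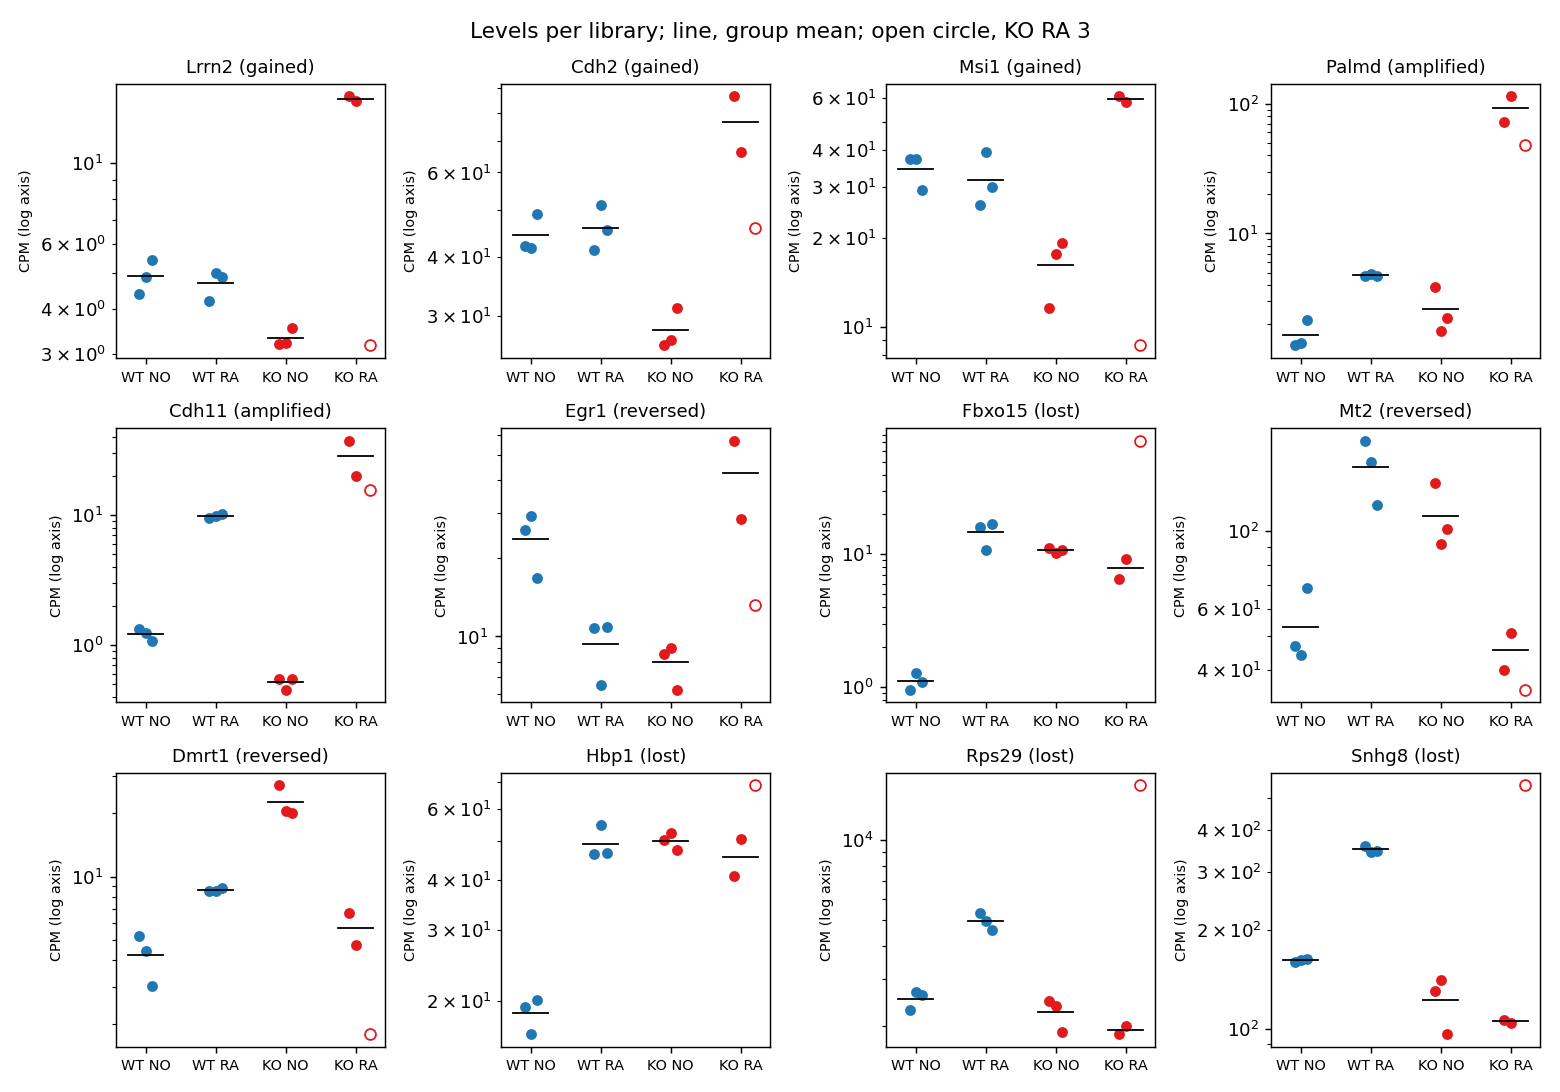
CPM per library on log axes for 12 called genes in the 4 groups, with WT in blue, KO in red, group means as lines and KO RA replicate 3 as an open circle that is not in the mean. Replicate 3 lies far from the filled KO RA points for Lrrn2 (3.17 CPM), Msi1 (8.62 CPM) and Rps29 (16080 CPM) and nearer to them for Palmd (48.3 CPM).

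Ligands and receptors that steer axons had a median interaction of 1.22 over 52 tested genes, with 46 above 0. Of the 52, 4 were called higher and 0 lower, against 0.802% and 0.537% of all tested genes. Efna2, an ephrin ligand, went from 6.06, 7.20 and 7.08 CPM in KO NO to 20.6 and 17.9 in KO RA, while WT held 10.1 to 15.3 and 9.40 to 10.2. Replicate 3 was at 3.97 CPM, below the untreated KO cells. Plxnd1, a semaphorin receptor, started far lower in KO (0.641 to 1.74 CPM) than in WT (7.08 to 12.6) and reached 8.60 and 6.73 CPM after RA, inside the WT RA range of 6.45 to 9.40. Its interaction was 3.215 ± 0.51 (log2 ± SE, adjusted p = 0.0234, edgeR), and replicate 3 was at 1.19 CPM. Rgmb, a BMP co-receptor, and Sema6d, a membrane semaphorin, were the other two, at 1.67 and 2.02.

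No neuron marker among 36 tested was called, against 0.802% of all tested genes called higher and 0.537% lower. Still, 28 of the 36 had an interaction above 0, with a median of 0.78. Tubb3, the neuronal beta-tubulin, was at 23.8 to 33.9 CPM in WT NO, 30.9 to 36.7 in WT RA, 15.5 to 20.1 in KO NO and 62.6 and 35.8 in KO RA, and the WT RA and KO RA ranges overlapped. Its interaction was 1.17 ± 0.31 (log2 ± SE, adjusted p = 0.0882, edgeR). Map2, a dendritic microtubule protein, rose in WT by 1.89 and in KO by 3.36 on the log2 scale, and the interaction of 1.47 had an adjusted p of 0.112 (edgeR). On the 12-library scale Map2 was at 8.55 to 15.2 CPM in WT RA and at 36.6 and 27.9 in KO RA. Replicate 3 was below all of these at 7.73 CPM. Of the 31 proneural factors and Notch ligands, 0 were called. Neurog2 stayed under 2 CPM in every library.

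Of 33 matrix and mesenchymal genes tested, 4 were called higher and 0 lower, against 0.802% and 0.537% of all tested genes. The median interaction of the 33 was 0.89. Cdh11, a cadherin of mesenchymal and neural crest cells, rose in WT from 1.07 to 1.33 CPM up to 9.55 to 10.3, and in KO from 0.452 to 0.549 up to 37.6 and 20.1, with 15.7 in replicate 3. All 3 KO RA libraries were above all WT RA libraries, and the interaction was 2.77 ± 0.36 (log2 ± SE, adjusted p = 0.0115, edgeR). Col1a2, a fibrillar collagen chain, rose by 3.06 in WT and by 5.77 in KO on the log2 scale, to 4.99 to 7.23 CPM and to 33.4 and 14.5, with 10.4 in replicate 3. The summed level of 6 mesenchymal markers was 85.8 to 93.3 CPM in WT RA, 117 and 222 in KO RA and 84.3 in KO RA replicate 3, which lay within the 78.7 to 85.7 CPM of WT RA on the 12-library scale. The part of such cells in these results was not tested.

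The amplified genes with the smallest adjusted p were Dchs1 and Palmd. Dchs1, a giant cadherin that sets planar polarity, went from 2.87 to 3.44 to 4.73 to 5.97 CPM in WT and from 1.06 to 1.10 to 13.4 and 9.07 CPM in KO, with 3.57 in replicate 3. Palmd, which codes for palmdelphin, was at 1.37, 1.44 and 2.14 CPM in WT NO and 4.72, 4.91 and 4.73 in WT RA, and went in KO from 3.88, 1.78 and 2.23 to 72.1 and 114 CPM. Replicate 3 was at 48.3 CPM, so all 3 KO RA libraries were above every other library. The interaction of Palmd was 3.62 ± 0.43 (log2 ± SE, adjusted p = 0.0102, edgeR). Tnc, the matrix glycoprotein tenascin C, was at 2.03 to 4.62 CPM in WT RA and at 26.9, 20.2 in KO RA, with 56.5 in replicate 3. Pcolce2, an enhancer of procollagen processing, was the amplified gene that fell, from 17.0 to 25.9 CPM in KO NO to 2.59 and 2.85 in KO RA, with 2.18 in replicate 3.

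Of 45 Wnt pathway genes tested, 3 were called higher and 0 lower, against 0.802% and 0.537% of all tested genes. The median interaction of the 45 was 0.42. Frzb, a secreted Wnt antagonist, was at 2.32 to 7.21 CPM in WT NO and 1.20 to 1.73 in WT RA, and at 0.613 to 1.01 in KO NO and 17.9 and 7.07 in KO RA, with 2.28 in replicate 3. Rspo3, a secreted Wnt agonist, rose in KO from 3.02 to 4.00 CPM to 23.1 and 24.6, and replicate 3 was at 29.6, while WT was at 4.56 to 6.77 and 7.40 to 11.1. Celsr1, a planar polarity cadherin, was the third. En1 and Pou3f1, transcription factors of midbrain and forebrain, were the 2 called of 13 forebrain and midbrain factors, at 2.07 and 2.02 on the log2 scale. Over all tested genes 0.802% were called higher. En1 went in KO from 6.07 to 9.92 CPM to 21.6 and 20.2 and was in WT at 7.24 to 15.7 and then at 5.09 to 7.43. Replicate 3 was at 7.53 CPM, within the 5.57 to 9.07 of KO NO on the 12-library scale. Pou3f1 went in KO from 2.53 to 2.78 CPM to 5.82 and 7.81, with 3.47 in replicate 3.

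Responses turned round between genotypes in 23 genes. Epop, an elongin BC and Polycomb partner (chr11:97518215-97520528), fell in WT from 147, 165 and 165 CPM to 78.4, 67.2 and 64.4 and rose in KO from 75.3, 74.5 and 79.4 to 99.8 and 116. Replicate 3 was at 47.7 CPM, below the untreated KO cells. The interaction was 1.68 ± 0.16 (log2 ± SE, adjusted p = 0.00611, edgeR). Prr5, a subunit of mTOR complex 2, fell in WT from 26.7 to 31.6 CPM to 15.95 to 16.8, and rose in KO from 12.3 to 16.6 to 30.4 and 24.8, with 16.3 in replicate 3. Egr1, an immediate early transcription factor, fell in WT from 25.7, 29.1 and 16.8 CPM to 10.8, 6.49 and 10.9, and rose in KO from 8.57, 9.04 and 6.22 to 57.0 and 28.4, with 13.2 in replicate 3. In each of these genes untreated KO cells were already below untreated WT cells, with no overlap of the libraries.

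Dmrt1, a transcription factor known from the gonad, turned the other way. It rose in WT from 5.22, 4.44 and 3.04 CPM to 8.55, 8.50 and 8.83 and fell in KO from 27.1, 20.5 and 20.1 to 6.70 and 4.74, with 1.78 in replicate 3. The interaction was −3.01 ± 0.34 (log2 ± SE, adjusted p = 0.0102, edgeR). All 3 KO RA libraries were below all WT RA libraries.

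The metallothioneins Mt1 and Mt2, small proteins that bind zinc and copper and that MTF1 switches on through metal response elements, are neighbours and moved together. The 220 bases from 200 before to 20 after the annotated start of each are shown because both genes were called and share this kind of element. The annotated start of Mt1 may lie upstream of the start in use, so bases nearer the gene are not in its window. They are from GRCm39, Mt1 at chr8:94905510-94905729 and Mt2 at chr8:94898932-94899151, both on the plus strand, with matches to TGCACNC or TGCGCNC on either strand in capitals.
Mt1: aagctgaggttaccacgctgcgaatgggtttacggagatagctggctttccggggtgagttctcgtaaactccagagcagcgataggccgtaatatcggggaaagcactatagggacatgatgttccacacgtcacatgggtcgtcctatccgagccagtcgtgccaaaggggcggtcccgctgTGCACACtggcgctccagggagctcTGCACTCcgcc
Mt2: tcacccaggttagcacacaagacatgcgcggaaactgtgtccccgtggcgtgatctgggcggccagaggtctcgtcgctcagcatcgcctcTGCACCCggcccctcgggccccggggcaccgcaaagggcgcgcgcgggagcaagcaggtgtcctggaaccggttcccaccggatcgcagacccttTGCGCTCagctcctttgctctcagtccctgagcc
Each window held 2 matches. At least 1 match was found in 24.9% of such windows over all tested genes, in 45 of 139 genes called higher and in 15 of 93 called lower, so the letters alone are common.

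Mt2 rose in WT from 47.0, 44.1 and 68.8 CPM to 182, 158 and 119 and fell in KO from 137, 92.2 and 101 to 40.0 and 51.2, with 35.1 in replicate 3. The WT groups did not overlap and neither did the KO groups, and the interaction was −2.80 ± 0.35 (log2 ± SE, adjusted p = 0.0102, edgeR). Mt1 rose in WT from 66.1, 53.7 and 117 CPM to 468, 298 and 278. In KO it was at 206, 174 and 163 CPM and then at 75.9 and 161, a difference that did not pass the test, with 30.03 in replicate 3 (interaction −2.75 ± 0.52, adjusted p = 0.0366, edgeR). The genes are close copies, and reads shared between them may have been split. They were the 2 called of 25 tested glutathione and NRF2 targets, both lower, against 0.537% of all tested genes called lower.

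Responses present in WT and lost in KO were led by Fbxo15, an F-box protein of pluripotent cells, which had the smallest adjusted p of all genes. It rose in WT from 0.952, 1.28 and 1.10 CPM to 16.2, 10.9 and 16.9. In KO it was at 11.2, 10.2 and 10.8 CPM without RA and at 6.50 and 9.29 with it, whereas replicate 3 was at 72.1 CPM. The interaction was −4.16 ± 0.34 (log2 ± SE, adjusted p = 0.00212, edgeR), and untreated KO cells were already above WT by 3.27. Hbp1, a repressor of cell cycle genes, rose in WT from 16.5 to 20.1 CPM to 46.3 to 54.6 and stood in KO at 47.5 to 52.2 before RA and at 40.8 and 50.5 after it, with 68.8 in replicate 3. In these 2 genes untreated KO cells were at or near the level that WT reached with RA.

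Falls that WT showed and KO did not were led by Nkx1-2, Efhd2 and Soga3. Nkx1-2, a homeobox gene of axial progenitors, fell in WT from 4.84 to 9.21 CPM to 0.519 to 0.739 and in KO was at 0.915 to 1.78 and then at 1.56 and 1.44, with 1.29 in replicate 3. Efhd2, a calcium-binding actin regulator, fell in WT from 27.3 to 31.5 CPM to 14.1 to 16.3 and in KO was at 15.9 to 17.9 and then at 21.6 and 18.5, with 16.95 in replicate 3. Soga3 fell in WT by 1.23 and in KO differed by 0.69 on the log2 scale (adjusted p = 0.0586, edgeR). It was in WT at 8.88 to 10.1 CPM and then at 3.485 to 4.56, and in KO at 5.42 to 6.16 and then at 11.8 and 7.29. Replicate 3 was below every other library at 2.775 CPM.

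Of 82 cytosolic ribosomal protein genes tested, 46 rose with RA in WT and 1 rose in KO, against 5.65% and 8.48% of all tested genes. The median response of the 82 was 0.60 in WT and −0.10 in KO. All 82 had an interaction below 0 with a median of −0.64, and 4 were called lower, against 0.537% of all tested genes. Rps29 went in WT from 2293, 2668 and 2616 CPM to 5317, 4929 and 4585 and in KO from 2482, 2368 and 1886 to 1852 and 1990, while replicate 3 was at 16080. Rpl3 went in WT from 876 to 960 CPM to 1619 to 1638 and in KO from 729 to 954 to 819 and 773, with 1945 in replicate 3. Many of these genes have near-identical pseudogenes, so their counts are uncertain. Snhg8 and Snhg1 host small nucleolar RNAs. Snhg8 rose in WT from 160 to 163 CPM to 344 to 360 and was in KO at 96.5 to 141 and then at 107 and 104, with 549 in replicate 3. Snhg1 rose in both, less in KO (0.60 against 1.43, log2), and replicate 3 was at 3030 CPM. With all 12 libraries the interactions of Rps29, Snhg8 and Snhg1 were above 0, at 0.71, 0.03 and 0.79.

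Length moved with the interaction. The median interaction was −0.35 in the shortest of the 5 length classes (76 to 2022 exonic bases) and 0.08 in the longest. Of the 3452 genes in the shortest class, 8 were called higher (0.232%) and 23 lower (0.666%). In the longest class, also of 3452, the counts were 34 (0.985%) and 10 (0.290%). Over all tested genes the shares were 0.802% and 0.537%. The class of 6382 to 9361 bases had 41 higher (1.19%) and 23 lower (0.666%), so calls did not shift steadily with length. The part of RNA quality in this was not tested. With an offset that removed each library's own length trend, chosen after the data were seen, 126 genes were called higher and 73 lower, of which 190 were among the 232.

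Genes that fell with RA only in KO were led by Dimt1, Lrpap1 and Ifi30. Dimt1, a methyltransferase of 18S ribosomal RNA, fell in KO from 24.6 to 25.6 CPM to 13.8 and 13.1 and was in WT at 32.8 to 38.8 and then at 42.1 ± 3.47 (SD, n = 3), whereas replicate 3 was at 47.3. Lrpap1, a chaperone of LDL receptor family proteins in the endoplasmic reticulum, fell in KO from 159 to 221 CPM to 71.0 and 76.9 and was in WT at 123 to 135 and then at 117 to 131, with 109 in replicate 3. Ifi30, a lysosomal thiol reductase, fell in KO from 38.8 to 42.4 CPM to 19.6 and 23.1, with 12.6 in replicate 3, and WT held 34.1 to 42.6 in both groups.

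Of 34 tested targets of the stress factor ATF4, 2 were called lower and 0 higher, against 0.537% and 0.802% of all tested genes. Only 4 of the 34 had an interaction above 0 and the median was −0.52. In KO 14 of the 34 fell with RA, against 7.54% of all tested genes, and in WT 3 did, against 5.13%. Slc7a3, a cationic amino acid transporter, was in KO at 71.7 to 80.3 CPM and then at 40.7 and 37.9, with 32.0 in replicate 3, and in WT at 31.3 to 57.1 and then at 58.9 to 67.8. Lars, the leucyl-tRNA synthetase, went in KO from 267 to 332 CPM to 114 and 102, with 70.1 in replicate 3. Of the unfolded protein response, the chaperone gene Hspa5 and the transcription factor genes Ddit3, Atf4 and Xbp1 were not called, with interactions of 0.18 for Hspa5, −0.66 for Ddit3, −0.36 for Atf4 and 0.62 for Xbp1 (adjusted p from 0.255 to 0.724, edgeR), and of 39 targets of ATF6 and XBP1 and degradation genes 0 were called, with a median of 0.15.

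Of 26 genes of the G2 and M phases, 2 were called lower, Ccnb1 and Kif11, against 0.537% of all tested genes. Ccnb1, the mitotic cyclin B1, went in KO from 65.8 to 82.2 CPM to 38.4 and 41.8 and was in WT at 101 to 117 and then at 101 to 119, and replicate 3 was at 114. Kif11, a mitotic spindle motor, went in KO from 75.1 to 78.9 CPM to 51.9 and 53.2, with 74.7 in replicate 3.

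Of 28 RA enzymes, receptors and targets, 1 was called lower and 0 higher, against 0.537% and 0.802% of all tested genes. The median interaction of the 28 was 0.57. Dhrs3, a retinaldehyde reductase that limits RA synthesis, fell in KO from 9.17 to 13.2 CPM to 4.45 and 5.14, with 1.98 in replicate 3, and was in WT at 5.30 to 6.72 and then at 6.98 to 9.24. Cyp26a1 rose in both genotypes, from 0.320 to 0.419 CPM to 1.63 to 3.17 in WT and from 0.732 to 1.39 to 9.97 and 14.4 in KO, with 14.87 in replicate 3. The interaction of Cyp26a1 was 1.07 ± 0.53 (log2 ± SE, adjusted p = 0.307, edgeR). Rarb rose in WT by 1.95 (adjusted p = 0.0241, edgeR), and in KO it differed by 1.28 (adjusted p = 0.0915, edgeR), with an interaction of −0.66 (adjusted p = 0.627, edgeR).

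Hox genes showed 0 calls among 23 tested, where 0.802% of all tested genes were called higher and 0.537% lower. With RA 10 rose in WT and 4 in KO, against 5.65% and 8.48% of all tested genes. The median responses of the 23 were 4.84 and 1.22, with a median interaction of −0.53. The mean level of 15 of the 23 was under 2 CPM in every group. Hoxb2 rose in both, by 5.44 in WT and 5.50 in KO (interaction 0.06 ± 0.79, adjusted p = 0.991, edgeR). Otx2, a forebrain factor that RA represses in the embryo, fell in KO (−0.71, adjusted p = 0.0224, edgeR) and had an interaction of −0.44 (adjusted p = 0.346, edgeR).

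**Figure D3:**
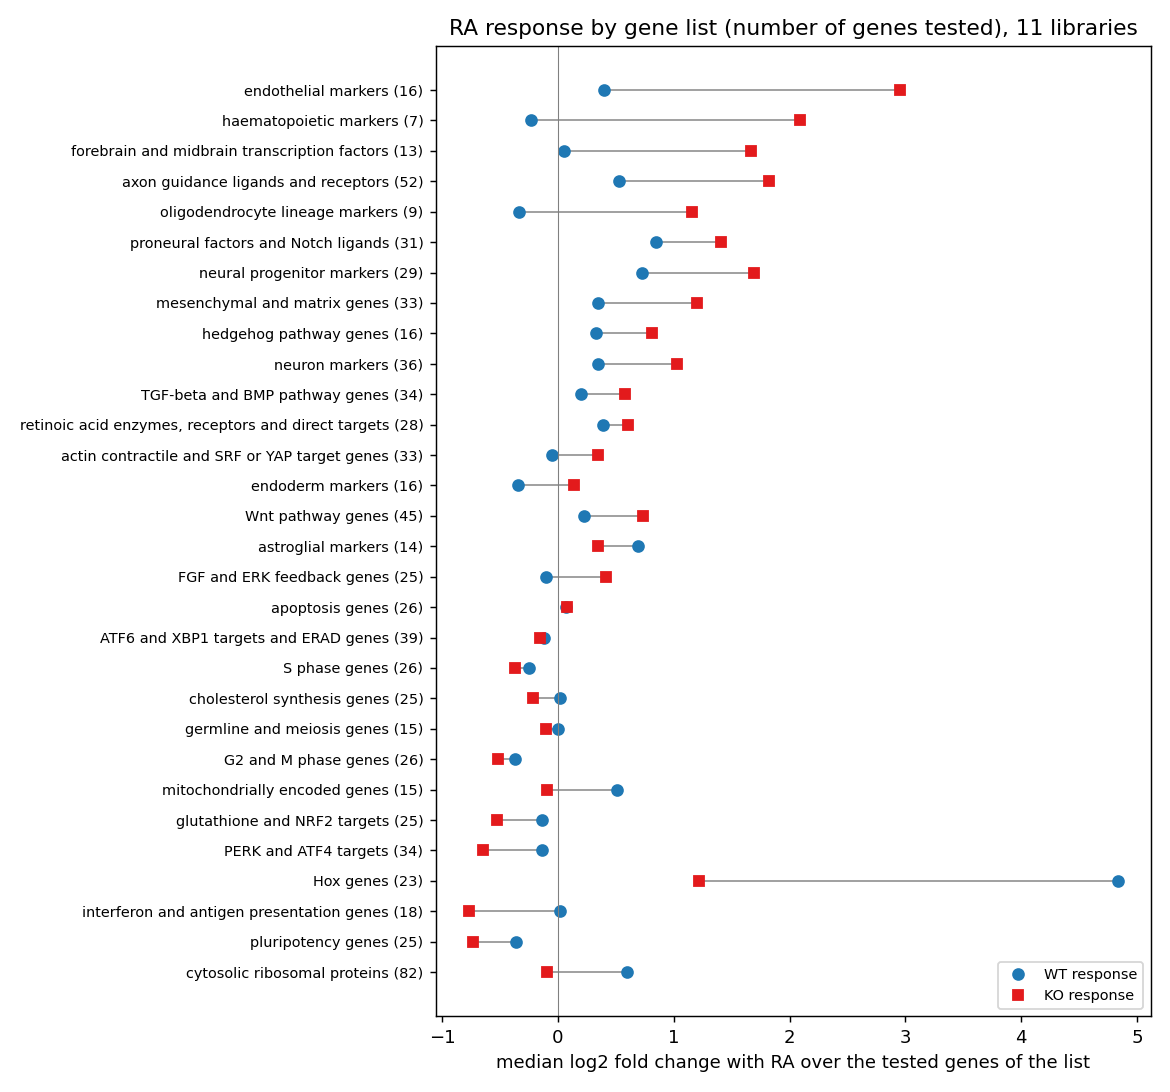
Median log2 fold change with RA over the tested genes of each of 30 gene lists, with circles for WT and squares for KO, ordered by the median interaction. The largest gap to the left is in Hox genes (4.84 in WT, 1.22 in KO). The median interaction of the 23 Hox genes was only −0.53, with 0 called, and 15 had mean levels under 2 CPM in every group. Cytosolic ribosomal proteins lie at 0.60 in WT and −0.10 in KO.

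Of the 30 lists, 13 held a called gene and 17 held 0, where 0.802% of all tested genes were called higher and 0.537% lower. The only called gene was Tnc among 14 astroglial markers (median interaction 0.36), Egr1 among 25 FGF and ERK feedback genes (0.31) and Epop among 25 pluripotency genes (−0.62). With 0 calls, the median was 1.03 for oligodendrocyte markers, 0.78 for hedgehog genes, 0.62 for TGF-beta and BMP genes, 0.52 for actin contractile and SRF or YAP targets, 0.47 for endoderm markers and 0.21 for apoptosis genes. It was 0.04 for S phase genes, −0.03 for cholesterol synthesis genes, −0.07 for germline genes, −0.39 for mitochondrially encoded genes and −0.53 for interferon and antigen presentation genes. Endothelial markers had a median interaction of 1.98 over 16 genes and haematopoietic markers 1.58 over 7, with no call, and the 5 defining endothelial markers summed to 1.45 to 2.59 CPM in WT RA and to 12.2 and 15.1 in KO RA, with 4.46 in replicate 3.

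KO RA replicate 3 gave an interaction of the same sign as the other 11 libraries for 92 of the 139 genes called higher (66.2%) and 50 of the 93 called lower (53.8%), against 48% and 55.8% of all tested genes. It shares 9 libraries with the main comparison, and this is a description. In the 12-library edgeR fit of 16502 genes, the median interaction shifted to 0.12, the smallest adjusted p was 0.0825 and before adjustment p was under 0.05 for 913 genes above 0 and 510 below, against 1612 and 1666 with 11 libraries. DESeq2 on all 12 called 214 higher and 95 lower, 102 of them among the 232, and limma-voom with sample weights called 588 and 397, 221 of them among the 232.

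**Figure D4:**
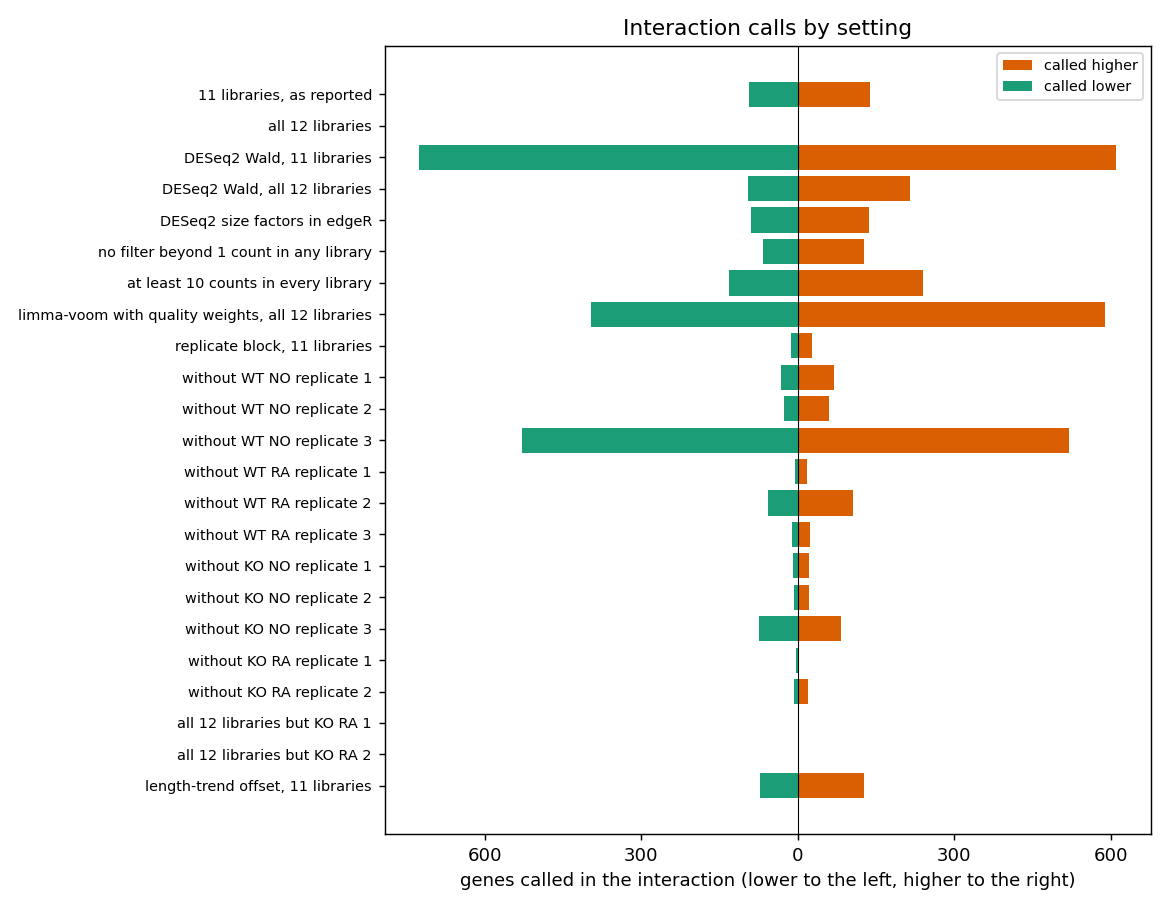
Number of genes called in the interaction at an adjusted p of 0.05, higher to the right and lower to the left, for the reported fit and each alternative. No gene is called by edgeR in the 3 settings that hold KO RA replicate 3, and leaving out 1 of the other 11 libraries gives 3 to 520 genes called higher.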

How the data were processed

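WT and Faf2 KO NE-4C cells were profiled by mRNA-seq. Per the study's methods the authors aligned reads to mouse GRCm39 with STAR and quantified them with Salmon in the nf-core pipeline, and the submitters' processing notes name DESeq2. The deposited values are estimated counts per gene, scaled from TPM by the authors and thus corrected for length, so a count is not a fragment. They were rounded to whole numbers. The tests treat them as counts.

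Counts were filtered with filterByExpr, scaled with TMM and fitted by group with robust quasi-likelihood in edgeR 4.0.16 (R 4.3.3) on 11 libraries, with 7 residual degrees of freedom and a common dispersion of 0.116. KO RA replicate 3 was left out and enters the second fit. Two-sided tests were adjusted by Benjamini-Hochberg at 0.05. Classes use the adjusted p of each genotype's response. Gene coordinates and starts are from GENCODE vM39. The genes and lists, and the omission of the library, were chosen with earlier results of these data known. Genes were named by a rule: per class and direction the smallest adjusted p among called genes with non-overlapping groups and at least 5 CPM in 1 group, up to 2 called genes per list, and 16 set genes. Fold changes are not given for the 12 called genes with 3 counts or fewer in every library of a group. Alternatives used DESeq2 1.42.0 and limma 3.58.1. In the 11 libraries, replicates within a group differed beyond counting noise in 42.5% to 72.3% of genes. Pairs with KO RA replicate 3 gave 92.1% and 91.3%. These shares used library totals without TMM factors and values already scaled, so composition and scaling enter them. The code was tested on simulated data with a smaller dispersion than these data, effects only in well counted genes and no outlying library. That checks the code and not the error rate in these data. Counting intervals would cover counting error only.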

Additional observations from a re-analysis of the deposited data

Results flagged for a closer look

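The RA response differed between genotypes by the interaction test in 139 genes higher in KO and 93 lower (edgeR, adjusted p of 0.05, 11 libraries). The log2 interactions of the named genes that passed were as follows, with replicate values for most of them in the text above.

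Among gained responses with a higher value in KO the interaction was 2.23 for Lrrn2, 4.60 for Cbln1, 1.79 for Pfn2, 5.53 for Frzb, 1.83 for Efna2, 2.18 for Rspo3, 1.40 for Cdh2, 2.00 for Msi1, 3.21 for Plxnd1, 1.15 for Nes, 2.02 for Pou3f1 and 2.07 for En1. Among gained responses with a lower value in KO the interaction was −1.17 for Dimt1, −1.27 for Lrpap1, −1.08 for Ifi30, −1.59 for Dhrs3, −0.97 for Ccnb1, −1.42 for Slc7a3, −1.12 for Lars and −0.75 for Kif11. Among lost responses with a higher value in KO the interaction was 3.61 for Nkx1-2, 1.22 for Efhd2 and 1.92 for Soga3. Among lost responses with a lower value in KO the interaction was −4.16 for Fbxo15, −1.53 for Hbp1, −1.33 for Snhg8, −1.19 for Rps29, −0.92 for Rpl3 and −2.75 for Mt1. Among amplified responses with a higher value in KO the interaction was 2.64 for Dchs1, 3.62 for Palmd, 2.77 for Cdh11, 2.72 for Col1a2 and 3.29 for Tnc. Among amplified responses with a lower value in KO the interaction was −2.03 for Pcolce2. The damped response with a lower value in KO the interaction was −0.83 for Snhg1. Among reversed responses with a higher value in KO the interaction was 1.68 for Epop, 1.78 for Prr5 and 3.77 for Egr1. Among reversed responses with a lower value in KO the interaction was −3.01 for Dmrt1 and −2.79 for Mt2. 

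None of these passed in the 12-library edgeR fit. Groups held 3 libraries or fewer, so no single library was tested against its group.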

How the results depend on the processing

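Calls were counted again under each alternative, in the order higher, lower, then gained, lost, amplified, damped, reversed and neither, against 139, 93, 131, 52, 24, 2, 23 and 0 as reported. edgeR on all 12 libraries gave 0 throughout, as did all 12 but KO RA 1 or but KO RA 2 (both chosen after the data were seen), so no pair of KO RA libraries that includes replicate 3 gave a call. In these last 2 fits 1477 and 1546 genes were higher and 582 and 777 lower at an unadjusted p under 0.05. DESeq2 on 11 libraries gave 609, 725, 686, 379, 91, 9, 81 and 88. DESeq2 on 12 gave 214, 95, 193, 65, 26, 0, 10 and 15. limma-voom on 12 gave 588, 397, 544, 267, 60, 7, 94 and 13. At least 10 counts in every library gave 239, 132, 208, 88, 32, 4, 33 and 6, with fewer genes tested. No filter gave 126, 66, 119, 39, 22, 1, 11 and 0. Classes by a log2 fold of 1 gave 27 lost, 0 damped, 10 reversed and 85 neither. DESeq2 size factors (137 and 90) and the length offset (126 and 73) moved no count by over 1.5 times. The cause of these shifts was not tested.

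The replicate block gave 27 higher and 14 lower (20 gained, 7 lost, 5 amplified, 0 damped, 9 reversed), 39 of them among the 232. The deviations of 15 same-numbered pairs correlated between −0.128 and 0.088, none over 0.1. Those of 30 other pairs correlated between −0.106 and 0.13. Deviations from the mean of so few libraries are tied to each other, and in KO RA they were equal and opposite. Whether the numbers pair the samples therefore cannot be decided from these correlations.

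Leaving out 1 of the 11 libraries gave 3 to 520 genes higher and 3 to 528 lower, with 2 to 549 gained, 2 to 312 lost, 1 to 57 amplified, 0 to 15 damped, 1 to 97 reversed and 0 to 18 neither. The lowest counts came without KO RA replicate 1, where the remaining KO RA library is assumed to vary like the other groups (3 and 3), and the highest without WT NO replicate 3 (520 and 528). Calls in 1 or both directions also fell by over 1.5 times without KO RA replicate 2 (20 and 8), KO NO replicate 3 (83 and 75), WT RA replicate 2 (105 and 58), WT RA replicates 1 (17 and 6) and 3 (24 and 12), KO NO replicates 1 (21 and 9) and 2 (21 and 7), and WT NO replicates 1 (70 and 33) and 2 (60 and 26).

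Of the named genes, Snhg8, Rps29 and Snhg1 reversed to 0.031, 0.71 and 0.79 with all 12 libraries. Without KO RA 1 but with replicate 3, Dimt1, Snhg8, Rps29, Ccnb1, Rpl3 and Snhg1 reversed to 0.18, 0.50, 1.25, 0.16, 0.023 and 1.29, and without KO RA 2 to 0.19, 0.50, 1.24, 0.14, 0.043 and 1.30. Over all named genes and alternatives, 841 values kept direction and side of the threshold, 357 fell short of it, 11 passed it and 15 reversed. Epop, Dmrt1 and Palmd passed in 19 of 22 alternatives each.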
